A study of Mus musculus with 10 samples.

Results

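Solute carriers are membrane proteins that move sugars, amino acids, nucleosides, ions, metals and metabolites across the plasma membrane and the membranes of organelles. The genes described here are the 245 solute carrier genes detected in mouse CD4 CD8 double-positive (DP) thymocytes, out of 13138 genes tested in the same arrays. They were chosen by their measured intensity: each had a symbol beginning with Slc and a number, and its probe set with the highest mean was at or above the 40th percentile of all probe sets in 2 or more of the 10 arrays. Of 364 such symbols on the array, 115 did not reach that level and 4 (Slc7a11, Slc3a2, Slc2a1 and Slc2a3) were left out beforehand. By this naming rule, 6 of the 245, among them Slc6a19os, are not carriers themselves. Counts over all 245 include them. The 40th percentile lay at 6.03 to 6.13 log2 intensity, and 203 of the 245 genes were at or above it in all 10 arrays. Slc12a3 was included only through WT arrays and Slc17a9 only through DKO arrays. Nearest to the limit inside it were Slc12a3, Slc27a3 and Slc6a2, whose second-highest array was 0.00298, 0.0342 and 0.0439 log2 units above it. Just outside were Slc6a4, Slc22a23 and Slc38a5, at -0.000252, -0.00187 and -0.0091.

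The study asked how DP thymocytes depend on the E proteins E2A and HEB, helix-loop-helix transcription factors encoded by Tcf3 and Tcf12 that bind DNA at the E-box motif CANNTG. DP cells were sorted from the thymus of individual 8-week-old mice, and total RNA of each mouse was hybridised to 1 Affymetrix expression array. The groups were wild-type (WT, n = 3), E2Aflox/flox (E2AKO, n = 2), HEBflox/flox (HEBKO, n = 2) and E2Aflox/flox HEBflox/flox (DKO, n = 3), and all mice, WT included, carried Cd4-cre. Cd4-cre deletes from about the DP stage onwards in T-lineage cells, so the arrays describe cells that developed with the factors before that stage, and the extent of deletion was not given in the labels.

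In T cells, carrier expression is known to follow growth, activation and maturation. Amino acid and glucose carriers supply growing cells, monocarboxylate carriers move lactate and ketone bodies, and carriers of the inner mitochondrial membrane exchange nucleotides and metabolites with the cytosol. DP thymocytes are mostly small, resting cells awaiting selection.

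The targeted genes followed their labels. Tcf3 stood at 68.9% of the WT mean intensity in E2AKO, 126% in HEBKO and 63.5% in DKO, and Tcf12 at 107%, 69.6% and 45.8%. Both falls passed the limma test in DKO (adjusted p = 0.00256 for Tcf3 and 3.07e-05 for Tcf12) but not in the single knockouts (0.998 for Tcf3 in E2AKO and 0.0657 for Tcf12 in HEBKO). The DP marker Cd8a averaged 13.10 log2 in WT and 12.65 in DKO, while Cd4 averaged 12.23 in WT, 11.56 in HEBKO and 10.35 in DKO. The summed intensity of 12 DP identity genes spanned 60378 to 62232 in WT, 58850 to 61337 in E2AKO, 46075 to 56989 in HEBKO and 36848 to 40552 in DKO. Of these 12 genes, 7 were called lower in DKO and 0 higher, beside 5.41% and 8.18% of all genes tested. Cd1d1 and Themis, not called, differed by 0.09 and 0.08. Of the genes of mature single-positive T cells, 12 of 12 tested were called higher in DKO, beside the same 8.18%. Their sum went from 6380-7593 in WT, 5730-7770 in E2AKO and 7793-8181 in HEBKO to 15354-19646 in DKO. Of other cell types, 11 of 13 macrophage and granulocyte markers lay below the 40th percentile in all 10 arrays. The 2 tested were Itgam, lower in DKO by a difference of -0.67 (adjusted p = 0.0113 in limma), and C1qa, at 0.11 and not called. The summed intensity of that list overlapped between WT and DKO, as did those of dendritic and erythroid cell markers. The 10 thymic epithelial markers summed to 1345-1484 in WT and 988-1155 in DKO, with Cldn4 lower by a difference of -1.26 and Krt18 and Foxn1 at -0.01 and 0.04. The 7 B cell markers went from 494-549 to 383-441, and the 9 fibroblast and endothelial markers from 1552-1775 to 1894-1960, with Pecam1 higher by 0.37. The part of these shifts in the carrier changes was not tested. In sorted bulk cells a lower proportion of cells carrying a transcript and less transcript per cell cannot be told apart.

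In DKO cells, 26 of the 245 carrier genes differed from WT at an adjusted p under 0.05, 16 higher and 10 lower. The 16 include Slc17a9, which entered the set only through DKO arrays, so its rise carries no weight beyond that choice. The 10 include Slc6a19os, which is not a carrier itself. The share was 10.6%, against 13.6% of all genes tested; 6.53% of carriers were higher (8.18% of all genes) and 4.08% lower (5.41%). These shares were near those of all genes, so the counts say nothing particular about carriers as a class. The changes were spread over many families: 49 families were represented and 16 held a changed member. Of the 245 genes, 7 were called with a change of at least 2-fold, beside 276 of the 13138 genes tested (2.10%). The median difference over the 245 genes was -0.01 log2 and their middle 50% lay between -0.12 and 0.11; over all genes the median was also -0.01. Quantile normalising the deposited values again gave 13 higher and 14 lower. Leaving out WT replicate 3 left 16 calls, 8 in each direction.

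**Figure D1:**
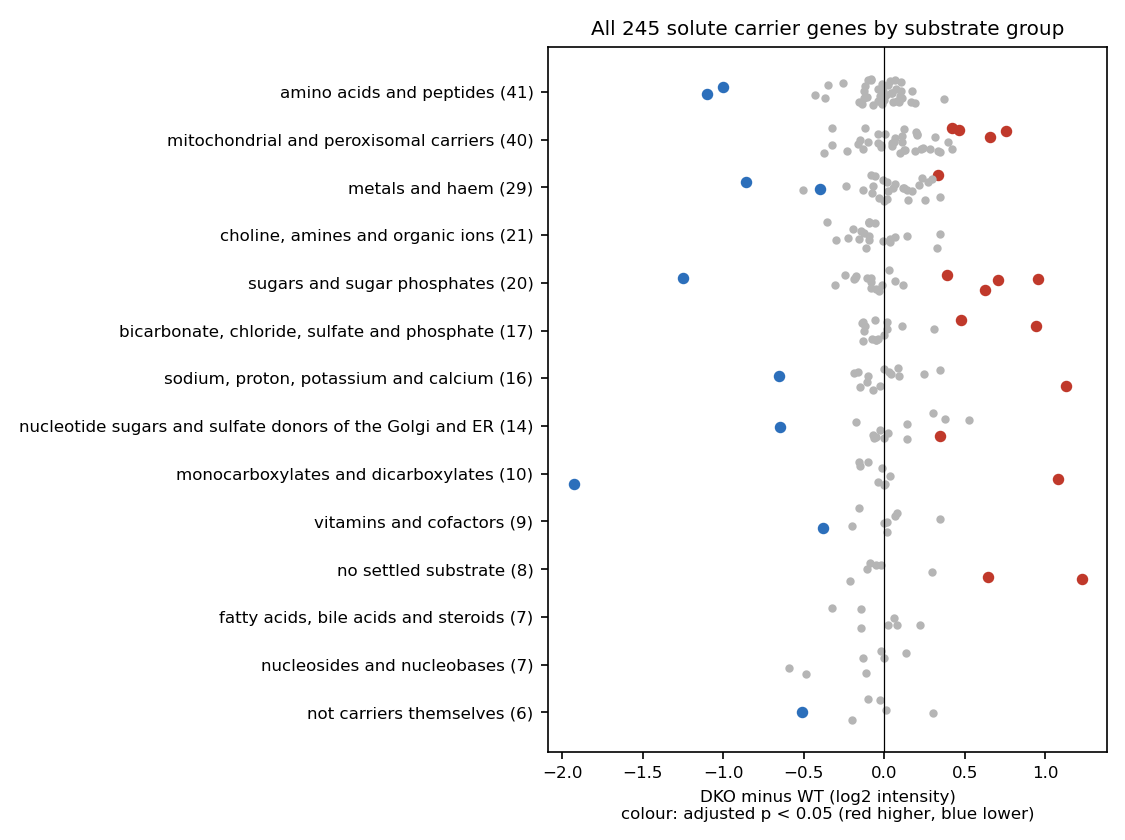
Difference between DKO and WT means (x axis, log2 intensity) for each of the 245 solute carrier genes, 1 point a gene, grouped by substrate with the number of genes in brackets. Red points were higher and blue points lower at an adjusted p under 0.05; most of the 219 grey points lie close to 0, and the coloured points are spread over 11 of the 14 groups.

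By substrate, few members were called in any group. Over all genes tested, 8.18% were higher and 5.41% lower in DKO. All 4 changed genes among 40 mitochondrial and peroxisomal carriers rose, while both changed genes among 41 carriers of amino acids and peptides fell. Among 20 carriers of sugars and sugar phosphates 4 rose and 1 fell. Metal and haem carriers (29 genes) had 1 rise and 2 falls. Carriers of bicarbonate, chloride, sulfate and phosphate (17 genes) had 2 rises, among them Slc17a9, which entered the set only through DKO arrays. Carriers of sodium, proton, potassium and calcium (16 genes) had 1 of each, as did the 14 nucleotide sugar carriers and the 10 monocarboxylate and dicarboxylate carriers. No gene passed among 21 carriers of choline, amines and organic ions, 7 of nucleosides and nucleobases, and 7 of fatty acids, bile acids and steroids. These counts are small and were not tested between groups, so they say nothing particular about any substrate. The group medians lay between -0.11 (nucleosides) and 0.11 (mitochondrial carriers).

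The largest change among the carriers was in Slc16a5, grouped with monocarboxylate carriers by its family. Slc16a5 encodes MCT6, a member of the monocarboxylate transporter family whose own substrates may differ. It measured 10.38, 10.37 and 10.29 log2 in WT, 10.10 and 10.29 in E2AKO, 9.13 and 9.92 in the HEBKO pair, and 8.29, 8.57 and 8.40 in DKO. Every DKO array was below every other array, and the HEBKO pair lay between DKO and the rest. The DKO difference was -1.93 ± 0.17 log2 (SE from limma, as for all errors of differences here; adjusted p = 1.96e-05), a 3.81-fold fall, and the HEBKO difference of -0.82 did not pass (adjusted p = 0.0698).

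A second member of the same family moved in the opposite direction. Slc16a6, which encodes MCT7, measured 7.76, 7.95 and 7.95 in WT, 7.94 and 8.03 in E2AKO, 7.98 and 7.75 in the HEBKO pair, and 8.85, 8.85 and 9.19 in DKO. The 7 arrays of the first 3 groups overlapped, and all 3 DKO arrays were above them. The rise was 1.08 ± 0.12 log2 (adjusted p = 9.89e-05), or 2.11-fold.

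Slc16a1 encodes MCT1, a widespread proton-linked carrier of lactate and pyruvate, and showed another pattern. Its values were 10.86, 10.94 and 10.92 in WT, 10.94 and 10.81 in E2AKO, 11.37 and 11.58 in the HEBKO pair, and 10.89, 10.98 and 10.95 in DKO. Both HEBKO arrays were above all others, while DKO overlapped WT. HEBKO exceeded WT by 0.56 ± 0.10 log2 (adjusted p = 0.0316), and DKO was lower than HEBKO by a difference of -0.53 ± 0.10 (adjusted p = 0.0142). In DKO the difference from WT was 0.03, with a 95% interval of -0.17 to 0.23. The HEBKO call was lost when WT replicate 1 or 3, either HEBKO array or DKO replicate 2 or 3 was left out, with differences of 0.46 to 0.67 and adjusted p up to 0.156. Without HEBKO replicate 2 or DKO replicate 1 or 3, the difference between DKO and HEBKO was not called (adjusted p up to 0.154, differences of -0.64 to -0.42). Slc16a3, which encodes the lactate exporter MCT4, did not pass in DKO (-0.10; adjusted p = 0.599).

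**Figure D2:**
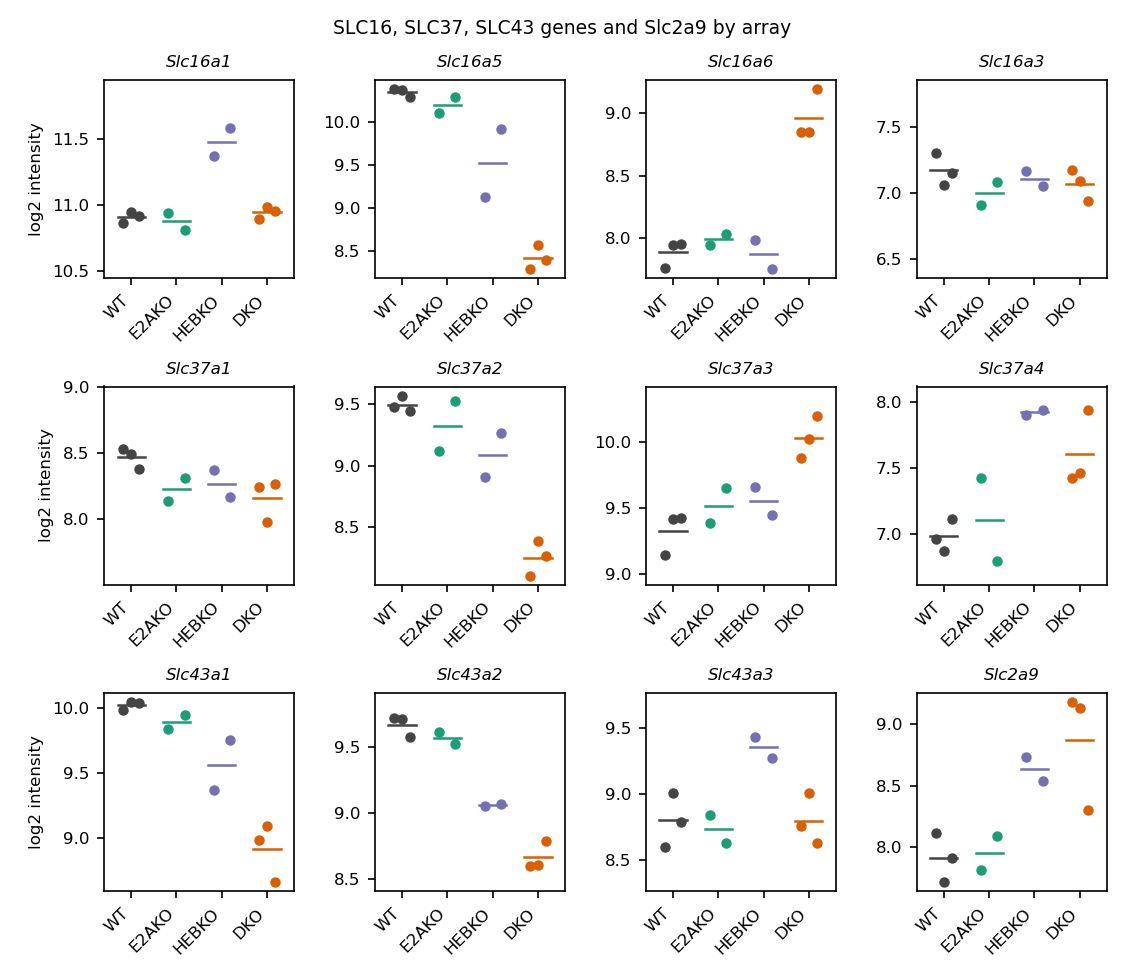
Log2 intensity (y axis) in each array of the 4 groups (x axis) for members of the SLC16, SLC37 and SLC43 families and Slc2a9; points are single arrays and lines are group means. Slc16a5, Slc37a2, Slc43a1 and Slc43a2 are lowest in DKO, Slc16a6 and Slc37a3 are highest there, and Slc16a1 and Slc37a4 have their highest mean in HEBKO.

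Amino acid carriers had few changes, and both were in one family. Slc43a1 and Slc43a2 encode LAT3 and LAT4, sodium-independent carriers of large neutral amino acids such as leucine and phenylalanine. Slc43a1 measured 9.98, 10.05 and 10.03 in WT, 9.84 and 9.94 in E2AKO, 9.37 and 9.76 in the HEBKO pair, and 8.99, 9.10 and 8.67 in DKO. Slc43a2 measured 9.72, 9.71 and 9.58 in WT, 9.61 and 9.53 in E2AKO, 9.05 and 9.07 in the HEBKO pair, and 8.60, 8.61 and 8.79 in DKO. For both genes no DKO array overlapped another group, and both HEBKO arrays were below all WT arrays. Slc43a1 fell by 1.10 ± 0.13 log2 in DKO (adjusted p = 0.000155), with a HEBKO difference of -0.46. Slc43a2 fell by 1.00 ± 0.09 in DKO (adjusted p = 3.04e-05) and by 0.61 ± 0.10 in HEBKO (adjusted p = 0.0238), the only carrier lower at that threshold in HEBKO. Without WT replicate 1 or 3, or either HEBKO array, the HEBKO call of Slc43a2 was lost (adjusted p up to 0.229, differences of -0.65 to -0.55). The remaining family member, Slc43a3, a purine nucleobase carrier grouped with the family, differed by -0.0021 in DKO and 0.55 in HEBKO, neither called.

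The other 39 amino acid and peptide carriers did not pass in DKO. Among them are the carriers best known from activated T cells: Slc7a5, the light chain of the leucine carrier LAT1, differed by 0.11, Slc1a5, the glutamine carrier ASCT2, by -0.04, Slc38a1 and Slc38a2, carriers of small neutral amino acids, by -0.26 and 0.05, and Slc7a1, a cationic amino acid carrier, by 0.17. The 95% interval for Slc38a2 was -0.20 to 0.30. Slc6a19, a neutral amino acid carrier, varied widely: 8.36, 8.56 and 8.82 in WT, 7.18 and 8.49 in E2AKO, 7.56 and 7.87 in the HEBKO pair, and 8.55, 8.22 and 7.87 in DKO. The groups overlapped and the DKO difference of -0.37 was not called (adjusted p = 0.466). Slc6a19os, a transcript named as opposite to Slc6a19 and not a carrier itself, was 0.51 ± 0.11 log2 units lower in DKO (adjusted p = 0.0071), with all 3 DKO arrays below the 40th percentile. It differed by -0.42 in E2AKO and -0.44 in HEBKO, neither called. Whether the probes tell the 2 strands apart is not given in the sources used here.

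Genes of the SLC37 family, grouped with carriers of sugar phosphates, also moved in both directions. The best described member is Slc37a4, the glucose 6-phosphate transporter of the endoplasmic reticulum. The substrates and location of the other members may differ. Slc37a2 measured 9.48, 9.57 and 9.45 in WT, 9.12 and 9.53 in E2AKO, 8.91 and 9.27 in the HEBKO pair, and 8.10, 8.38 and 8.26 in DKO. Its fall was -1.25 ± 0.13 log2 (2.38-fold; adjusted p = 7.96e-05), with DKO below all other arrays.

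Slc37a3 went up in the same cells. It measured 9.14, 9.42 and 9.43 in WT, 9.39 and 9.65 in E2AKO, 9.66 and 9.45 in the HEBKO pair, and 9.88, 10.03 and 10.20 in DKO, a rise of 0.71 ± 0.12 (adjusted p = 0.00281). Slc37a4 measured 6.97, 6.87 and 7.11 in WT, 7.43 and 6.80 in E2AKO, 7.91 and 7.94 in the HEBKO pair, and 7.43, 7.46 and 7.94 in DKO. Here HEBKO and DKO were both above WT, by 0.94 ± 0.19 (adjusted p = 0.0469) and 0.63 ± 0.17 (adjusted p = 0.0304), and DKO overlapped E2AKO. Both calls of Slc37a4 depended on single arrays. In DKO it was lost without any 1 of the WT arrays or DKO replicate 3 (0.46 to 0.72; adjusted p up to 0.124), and in HEBKO without WT replicate 1 or 3, either HEBKO array, or DKO replicate 1 or 2 (0.86 to 1.06; adjusted p up to 0.249). Slc37a1 differed by -0.31 in DKO and was not called (adjusted p = 0.0901).

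Among the sugar carriers proper, Slc2a9, known as a urate transporter of the GLUT family, measured 8.12, 7.72 and 7.91 in WT, 7.82 and 8.09 in E2AKO, 8.73 and 8.54 in the HEBKO pair, and 9.18, 9.13 and 8.30 in DKO. All HEBKO and DKO arrays were above all WT and E2AKO arrays, with DKO replicate 3 nearest to them. The DKO rise was 0.95 ± 0.20 (adjusted p = 0.00927) and the HEBKO difference 0.72 (adjusted p = 0.147). Slc50a1, a sugar transporter of the SWEET family, was 0.39 ± 0.10 higher in DKO (adjusted p = 0.0250). Leaving out a single WT array, or DKO replicate 2 or 3, ended that call (0.34 to 0.43; adjusted p up to 0.0948).

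**Figure D3:**
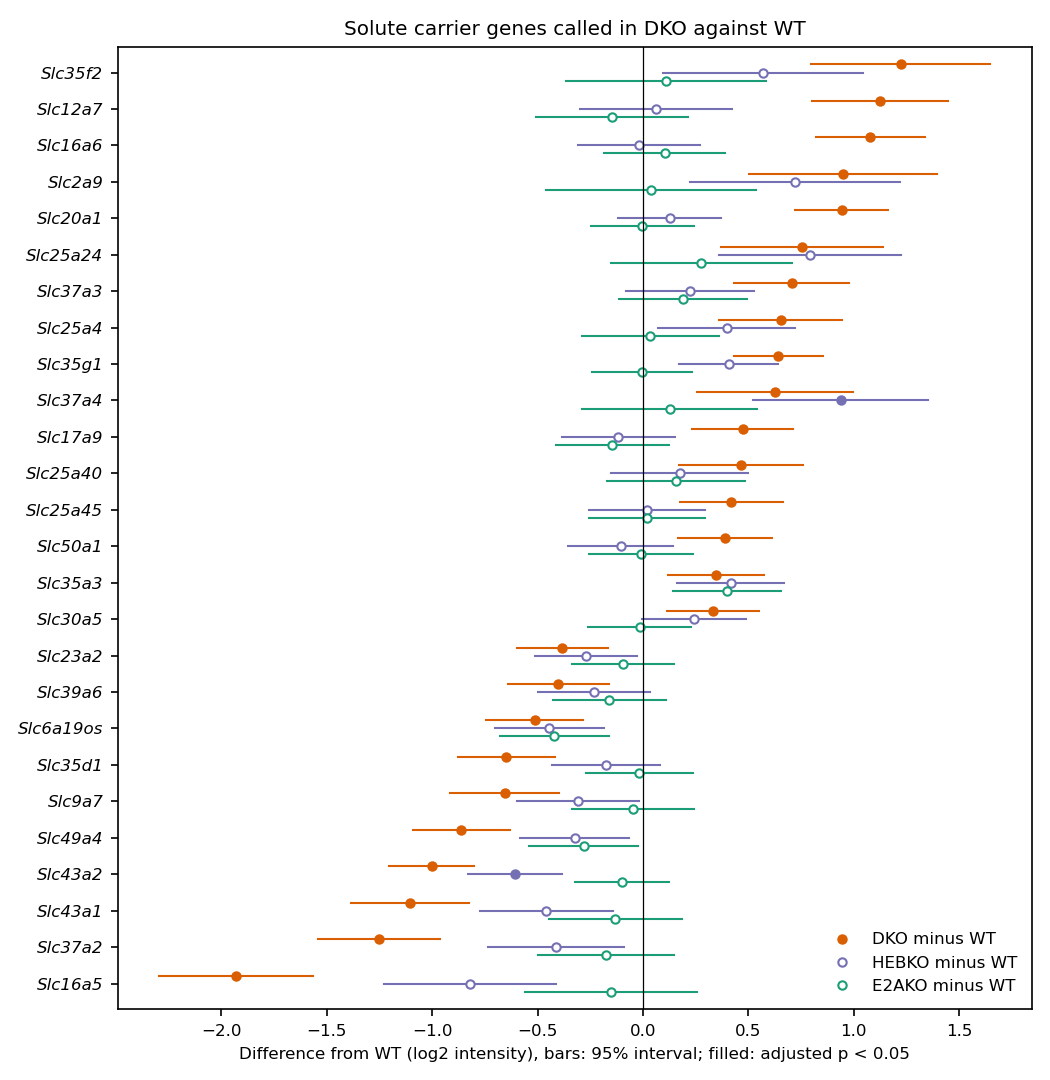
Difference from WT (x axis, log2 intensity, with its 95% interval) for the 26 solute carrier genes called in DKO, in DKO (orange), HEBKO (purple) and E2AKO (green), with filled points for an adjusted p under 0.05. Slc16a5 has the lowest DKO value at -1.93 and Slc35f2 the highest at 1.22; in HEBKO only Slc37a4 and Slc43a2 of these genes are filled, and in E2AKO none.

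Among ion carriers, Slc20a1 and Slc12a7 were higher in DKO. Slc20a1 encodes PiT-1, a sodium-dependent phosphate importer. It measured 10.17, 10.17 and 10.07 in WT, 10.19 and 10.08 in E2AKO, 10.19 and 10.33 in the HEBKO pair, and 10.96, 11.02 and 11.25 in DKO. DKO stood clear of the 7 other arrays, with a rise of 0.94 ± 0.10 (1.92-fold; adjusted p = 8.6e-05). Slc12a7 encodes KCC4, a potassium-chloride cotransporter active in cell volume control. It measured 9.22, 9.21 and 9.16 in WT, 8.86 and 9.24 in E2AKO, 9.50 and 9.01 in the HEBKO pair, and 10.38, 10.10 and 10.49 in DKO. Again only the DKO arrays were high, by 1.13 ± 0.15 (2.18-fold; adjusted p = 0.000367). Both single knockouts overlapped WT.

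Slc9a7, which encodes the Golgi sodium/proton exchanger NHE7, was near the 40th percentile in all groups and lower in DKO. Its values were 6.51, 6.62 and 6.73 in WT, 6.72 and 6.42 in E2AKO, 6.45 and 6.18 in the HEBKO pair, and 6.01, 5.82 and 6.06 in DKO, of which 2 were below the 40th percentile. The difference was -0.66 ± 0.12 (adjusted p = 0.00324), and the true size may be understated so near the floor. Slc17a9, the vesicular nucleotide transporter grouped with phosphate carriers, was below the 40th percentile in all 3 WT arrays (5.92, 5.73 and 5.84) and measured 6.17, 6.20 and 6.54 in DKO. It entered the set through those DKO arrays, so its rise of 0.47 (adjusted p = 0.0144) carries no weight beyond that choice; without WT replicate 3 or DKO replicate 3 it was not called (0.48 and 0.35; adjusted p up to 0.0592).

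Among the 40 mitochondrial and peroxisomal carriers, 4 were called higher in DKO, beside 8.18% of all genes tested. Slc25a4 encodes ANT1, an ADP/ATP exchanger of the inner membrane. It measured 9.85, 10.34 and 10.08 in WT, 10.07 and 10.19 in E2AKO, 10.41 and 10.57 in the HEBKO pair, and 10.54, 10.81 and 10.89 in DKO, with DKO above WT by 0.65 ± 0.13 (adjusted p = 0.00697). HEBKO and DKO overlapped. The related ADP/ATP exchanger ANT2, Slc25a5, differed by 0.20 with a 95% interval of -0.02 to 0.43 and was not called.

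Slc25a24, the calcium-regulated ATP-Mg/phosphate carrier, measured 6.49, 6.22 and 6.05 in WT, 6.84 and 6.22 in E2AKO, 7.27 and 6.82 in the HEBKO pair, and 7.15, 6.84 and 7.04 in DKO. HEBKO and DKO were at like levels, above WT by 0.79 (adjusted p = 0.0897) and 0.76 ± 0.18 (adjusted p = 0.0146). Slc25a40, which imports glutathione into mitochondria, and Slc25a45, a carrier of the same family, rose by 0.47 (adjusted p = 0.0392) and 0.42 (adjusted p = 0.0289). Each of these 3 calls was lost on leaving out single arrays. For Slc25a24 these were WT replicate 3 and DKO replicates 1 and 3 (0.66 to 0.88; adjusted p up to 0.0738), and for Slc25a40 WT replicates 1 and 3 and DKO replicates 2 and 3 (0.37 to 0.60; up to 0.152), and Slc25a40 was also lost when the probe sets of a gene were averaged. For Slc25a45 it was any WT or DKO array (0.36 to 0.45; up to 0.116), and quantile normalising again also removed that call. Slc25a4 kept its call with any single array left out, with an adjusted p of at most 0.0370.

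Among metal and vitamin carriers, Slc49a4 changed more than Slc39a6, Slc30a5 and Slc23a2. Slc49a4, counted with metals and haem because its family holds haem exporters although its own substrate may differ, measured 10.17, 10.19 and 9.99 in WT, 9.87 and 9.80 in E2AKO, 9.63 and 9.96 in the HEBKO pair, and 9.24, 9.32 and 9.20 in DKO. DKO was below all other arrays, by -0.86 ± 0.11 from WT (adjusted p = 0.00022). Slc39a6, the zinc importer ZIP6, was lower by a difference of -0.40 ± 0.11 (adjusted p = 0.0309), and Slc30a5, the zinc transporter ZnT5 of the secretory pathway, was higher by 0.33 (adjusted p = 0.0484). Slc23a2, the ascorbate transporter SVCT2, was lower by a difference of -0.38 ± 0.10 (adjusted p = 0.0245).

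Single arrays decided those 3 smaller calls. Slc39a6 was not called without WT replicate 2 or 3 or DKO replicate 2 (-0.46 to -0.30; adjusted p up to 0.139), nor Slc23a2 without WT replicate 1 or 3 or DKO replicate 1 or 2 (-0.44 to -0.33; up to 0.116). Slc30a5 kept its call only when WT replicate 2 was left out among the 10 arrays (0.24 to 0.46; up to 0.215), and lost it after re-run quantile normalisation and with no intensity filter.

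Carriers of nucleotide sugars feed glycosylation in the Golgi and endoplasmic reticulum. Slc35d1, which carries UDP-glucuronic acid and UDP-N-acetylgalactosamine, measured 9.12, 9.34 and 9.04 in WT, 9.23 and 9.07 in E2AKO, 8.93 and 9.06 in the HEBKO pair, and 8.44, 8.50 and 8.61 in DKO. It fell by 0.65 ± 0.10 (adjusted p = 0.00159), with DKO below the other 3 groups. Slc35a3, the UDP-N-acetylglucosamine carrier, differed from WT by 0.35 in DKO (adjusted p = 0.0476), 0.42 in HEBKO (0.116) and 0.40 in E2AKO (0.998). All 7 knockout arrays of Slc35a3, at 8.77 to 8.98, were above the 3 WT arrays, at 8.36 to 8.65. Its DKO call was lost on leaving out any array but WT replicate 2 (0.28 to 0.48; adjusted p up to 0.201), and likewise after re-run quantile normalisation and with no intensity filter.

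Of the SLC35 genes with no settled substrate, Slc35f2 and Slc35g1 rose. Slc35f2 measured 6.54, 6.88 and 6.24 in WT, 6.996 and 6.33 in E2AKO, 7.30 and 6.94 in the HEBKO pair, and 7.97, 7.65 and 7.71 in DKO. All DKO arrays were above the others, and the WT arrays themselves were spread. The rise was 1.22 ± 0.19 (2.34-fold; adjusted p = 0.00143). Slc35g1 measured 7.95, 8.09 and 8.13 in WT, 8.08 and 8.02 in E2AKO, 8.53 and 8.40 in the HEBKO pair, and 8.58, 8.71 and 8.81 in DKO, a rise of 0.64 ± 0.10 in DKO (adjusted p = 0.000916) and a difference of 0.41 in HEBKO (0.101).

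Most carriers showed no large change. Of the 219 genes not called in DKO, 217 had a 95% interval within 1 log2 unit of 0 and 195 within 1.5-fold. The largest uncalled differences were 0.52 for Slc35d2 and -0.59 for Slc28a2b, a nucleoside carrier gene with a near-identical copy, whose signal is therefore uncertain. Slc44a2, a choline transporter-like protein, differed by -0.01 (-0.19 to 0.18) and Slc9a9, an endosomal sodium/proton exchanger, by -0.07 (-0.35 to 0.21). Slc29a1, the nucleoside carrier ENT1, differed by -0.48 (-0.81 to -0.16) and missed the threshold (adjusted p = 0.0542). It passed under several other settings, including re-run quantile normalisation (-0.55).

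Promoter sequences of 5 changed genes are printed because the deleted factors bind CANNTG, and these promoters cover genes that fell (Slc43a1 and Slc37a2) and genes that rose (Slc37a3, Slc20a1 and Slc12a7). Each window, from RefSeq on GRCm38.p6, runs from 250 bases before to 50 bases after the annotated start, 5′ to 3′ on the strand of the gene; capitals mark matches to CANNTG, a pattern that reads the same on both strands. For Slc37a3, Slc20a1 and Slc12a7 it is the first of 2 entries.
Slc43a1, chr2:84840073-84840372, plus strand: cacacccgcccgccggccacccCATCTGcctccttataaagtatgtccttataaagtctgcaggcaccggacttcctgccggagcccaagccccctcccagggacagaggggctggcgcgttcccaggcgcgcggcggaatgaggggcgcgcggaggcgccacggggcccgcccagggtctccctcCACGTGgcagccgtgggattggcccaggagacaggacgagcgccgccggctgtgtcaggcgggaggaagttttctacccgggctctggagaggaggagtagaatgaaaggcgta
Slc37a2, chr9:37255689-37255988, minus strand: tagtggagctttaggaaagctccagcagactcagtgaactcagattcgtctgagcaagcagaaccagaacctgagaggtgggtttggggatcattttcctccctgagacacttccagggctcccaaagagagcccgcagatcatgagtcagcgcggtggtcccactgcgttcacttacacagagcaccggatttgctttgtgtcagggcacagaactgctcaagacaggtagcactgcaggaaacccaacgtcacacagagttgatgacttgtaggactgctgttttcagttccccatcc
Slc37a3, chr6:39377658-39377957, minus strand: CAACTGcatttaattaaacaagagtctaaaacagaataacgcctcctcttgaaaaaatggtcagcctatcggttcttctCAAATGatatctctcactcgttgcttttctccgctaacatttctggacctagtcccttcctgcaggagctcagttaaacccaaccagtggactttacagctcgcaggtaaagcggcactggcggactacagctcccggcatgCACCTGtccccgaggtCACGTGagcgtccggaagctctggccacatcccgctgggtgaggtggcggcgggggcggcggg
Slc20a1, chr2:129198523-129198822, plus strand: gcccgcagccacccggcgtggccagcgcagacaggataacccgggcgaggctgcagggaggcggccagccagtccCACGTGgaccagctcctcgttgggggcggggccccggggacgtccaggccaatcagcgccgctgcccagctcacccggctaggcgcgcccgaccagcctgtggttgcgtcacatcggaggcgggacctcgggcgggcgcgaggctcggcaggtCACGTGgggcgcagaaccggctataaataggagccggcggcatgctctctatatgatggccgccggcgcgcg
Slc12a7, chr13:73763410-73763709, plus strand: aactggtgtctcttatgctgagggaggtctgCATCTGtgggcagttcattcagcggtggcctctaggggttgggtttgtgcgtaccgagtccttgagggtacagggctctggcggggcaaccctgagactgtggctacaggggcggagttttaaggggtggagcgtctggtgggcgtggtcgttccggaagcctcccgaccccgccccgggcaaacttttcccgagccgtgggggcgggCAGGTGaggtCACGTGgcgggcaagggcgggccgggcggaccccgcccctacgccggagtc

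The window of Slc43a1 held 2 matches, CATCTG and CACGTG, and that of Slc37a2 held none. The window of Slc43a2, which also fell and is not printed, held none either (first of 2 entries). Slc37a3 had 4 matches, Slc20a1 had 2, both CACGTG, and Slc12a7 had 3. Of all 32851 promoters in the table, 72.3% held at least 1 CANNTG, as did 71.5% of the 242 promoters matched to 189 of the 245 carriers. Among carriers higher in DKO, 17 of 19 promoters held it (89.5%; 14 of 16 genes matched), and among carriers lower in DKO, 6 of 10 (8 of 10 genes matched). CAGCTG was in 16.3% of all promoters and 19.4% of those of carriers, CACCTG or CAGGTG in 20.2% and 21.9%. CACGTG, the form bound by Myc and its relatives, was in 7.2% of all promoters and in 34 of the 242 of carriers. It was in 5 of the 19 promoters of carriers that were higher and in 2 of the 10 of carriers that were lower. All of these are forms of CANNTG, some genes have several overlapping windows, and a match describes letters only.

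Loss of HEB alone changed 3 of 245 carriers, or 1.22%, against 0.906% of all genes. Slc37a4 and Slc16a1 were higher (0.816%, against 0.274% of all genes) and Slc43a2 lower (0.408%, against 0.632%), with the values given above and none at least 2-fold. At an unadjusted p under 0.05 there were 37 carriers, these 3 included, beside 16.7% of all genes. The count was 0 without WT replicate 1, WT replicate 3 or HEBKO replicate 1, 1 without HEBKO replicate 2 or DKO replicate 2, and 6 without WT replicate 2. HEBKO, E2AKO and DKO were all compared with the same 3 WT arrays.

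With loss of E2A alone (E2AKO, n = 2) no carrier was called in limma, and 0.00% of all genes tested passed. The targeted gene Tcf3 did not pass either (adjusted p = 0.998), so the lack of calls does not show that carriers were unchanged. At an unadjusted p under 0.05 there were 10 carriers, 2 higher and 8 lower, and 3.18% of all genes. The lowest adjusted p among carriers was 0.998. The median difference was -0.05 log2, and -0.02 over all genes. Slc6a19 (-0.74 ± 0.31) and Slc15a2, a peptide carrier (0.55 ± 0.58), had wide errors in this comparison. These errors pool the spread within all 4 groups. The 2 E2AKO arrays stood at 7.18 and 8.49 for Slc6a19 and at 9.05 and 10.72 for Slc15a2.

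Set directly against HEBKO, DKO cells differed in 13 of the 245 genes (5.31%, against 3.63% of all genes), 6 higher (2.45%, against 2.15%) and 7 lower (2.86%, against 1.48%). The higher genes were Slc16a6 by 1.10 ± 0.13 (adjusted p = 0.000752), Slc12a7 by 1.06 ± 0.17 (0.00408), Slc20a1 by 0.82 ± 0.11 (0.00201), Slc50a1, the pseudogene Slc2a4rg-ps, and Slc17a9, which again was in the set only through its DKO arrays. Lower were Slc16a5 by a difference of -1.11 ± 0.19 (0.00654), Slc37a2 by -0.84 ± 0.15 (0.00808), Slc29a1 by -0.76 ± 0.17 (0.0294), Slc43a1, Slc49a4, Slc16a1 and Slc35d1. Slc29a1, which encodes ENT1, measured 9.93 and 9.58 in HEBKO and 9.21, 9.13 and 8.66 in DKO, with WT at 9.46, 9.59 and 9.41. HEBKO replicate 2 weighed most: without it 3 calls were left, against 8 without HEBKO replicate 1, 7 without DKO replicate 1 and 5 without DKO replicate 3. Slc16a5, Slc16a6 and Slc20a1 kept their call with any single array left out, whereas Slc12a7 and Slc37a2 lost their call without HEBKO replicate 2 (adjusted p of 0.0548 and 0.106). Each of the other 8 also lost its call without HEBKO replicate 2, and without at least 2 further arrays, with adjusted p of up to 0.115 for Slc17a9 and up to 0.268 for Slc35d1.

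The interaction term asks whether the DKO difference departs from the sum of the single-knockout differences on the log2 scale. It passed for 3 carriers (1.22%, against 0.632% of all genes), all with DKO above that sum: Slc12a7 by 1.21 ± 0.23 (adjusted p = 0.0445), Slc16a6 by 1.00 ± 0.19 (0.0391) and Slc20a1 by 0.82 ± 0.16 (0.0461). For these genes the HEBKO differences were 0.06, -0.02 and 0.13. All 3 lay near the threshold. Slc12a7 lost its call without any WT array, E2AKO replicate 1, HEBKO replicate 2 or DKO replicate 1 or 3 (0.97 to 1.45; adjusted p up to 0.243), Slc16a6 without WT replicate 2 or 3, either E2AKO array, HEBKO replicate 2 or DKO replicate 3 (0.85 to 1.11; up to 0.197), and Slc20a1 without any 1 of the 10 arrays (0.73 to 0.89; up to 0.139). Slc12a7 was not called either with array weights or after re-run quantile normalisation. Nor was Slc20a1 with no intensity filter or with the arrays shifted to 1 median. With a replicate block none of the 3 was called.

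Many carriers depend on partner proteins and on ion gradients set up by pumps. Of 18 tested partners and energising pumps, 3 rose and 1 fell in DKO and 14 did not pass, beside 13.6% of all genes called. The 2 sodium pump beta subunits moved in opposite directions. Atp1b1 measured 9.45, 9.45 and 9.27 in WT, 9.22 and 9.11 in E2AKO, 8.66 and 8.84 in the HEBKO pair, and 7.63, 7.52 and 7.57 in DKO. Atp1b3 measured 10.74, 11.13 and 10.80, then 11.03 and 10.86, then 11.39 and 11.34, and 11.99, 12.14 and 11.96 in the same order. Atp1b1 fell by 1.81 ± 0.10 in DKO (adjusted p = 4.61e-07) and by 0.64 in HEBKO (adjusted p = 0.0227), and Atp1b3 rose by 1.14 ± 0.11 in DKO (adjusted p = 5.23e-05). In both genes the HEBKO arrays lay between WT and DKO. Embigin (Emb), an accessory protein of monocarboxylate carriers, rose by 0.68 ± 0.10 (adjusted p = 0.000685), while basigin (Bsg), the main partner of MCT1 and MCT4, differed by -0.20 and was not called. Sgk1, a kinase that raises the surface level of many carriers, rose by 0.80 ± 0.10 (adjusted p = 0.000297).

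**Figure D4:**
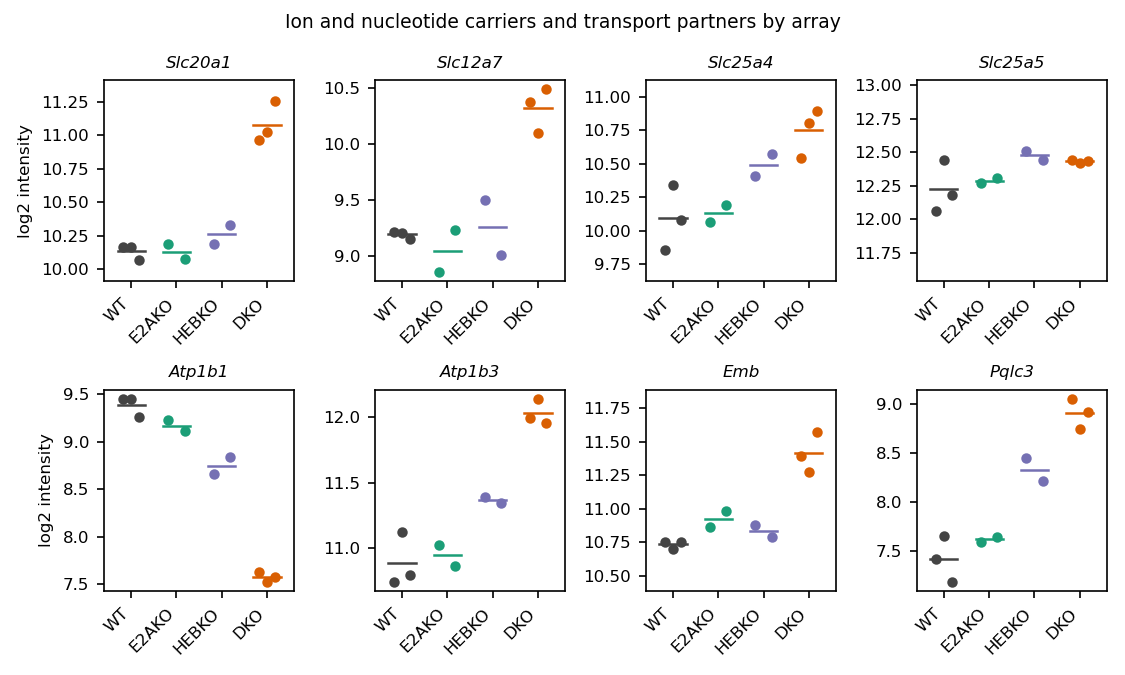
Log2 intensity (y axis) in each array of the 4 groups (x axis) for ion and nucleotide carriers (top) and for transport partners and Pqlc3 (bottom); points are single arrays and lines are group means. Slc20a1, Slc12a7, Atp1b3, Emb and Pqlc3 are highest in DKO, where Atp1b1 is lowest, at 7.52 to 7.63.

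Of 31 tested solute carriers that the array names without the Slc prefix, 6 rose and 2 fell in DKO, beside 8.18% of all genes higher and 5.41% lower. The largest was Pqlc3, a member of the family of lysosomal amino acid exporters, at 7.42, 7.65 and 7.18 in WT, 7.59 and 7.64 in E2AKO, 8.45 and 8.21 in the HEBKO pair, and 9.05, 8.75 and 8.91 in DKO. HEBKO was above WT by 0.91 (adjusted p = 0.0193) and DKO by 1.49 ± 0.13 (adjusted p = 2.21e-05), and the 3 levels did not overlap. Cln3, a lysosomal membrane protein, was higher by 0.75 (adjusted p = 0.00811), and Flvcr1, known as a haem exporter, differed by -0.55 (adjusted p = 0.00418). Among 18 tested ABC transporters, which use ATP directly, 3 rose and 2 fell, beside the same shares of all genes. Abcb1a, a multidrug efflux pump, measured 5.91, 6.05 and 6.04 in WT, near or below the 40th percentile, and 7.36, 7.14 and 7.43 in DKO. Its difference of 1.31 (adjusted p = 1.5e-05) may therefore be understated. Abcg1, a cholesterol exporter, fell by 0.80 (adjusted p = 0.00181).

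Of 25 tested regulators of nutrient transport, 2 rose and 1 fell in DKO, near the 13.6% of all genes called, so the count says nothing particular about regulators. Myc, which drives many carrier genes in activated lymphocytes, was higher by 1.25 ± 0.20 (adjusted p = 0.00136), and Nfe2l2, the regulator of the oxidative stress response NRF2, by 0.58 (adjusted p = 0.0031). Bach1, a haem-sensing repressor, was lower by a difference of -0.48 (adjusted p = 0.00467).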

How the data were processed

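Per the labels, each array held RNA of DP cells sorted from 1 mouse, with over 98% purity stated in the design text. The deposited table holds linear intensity values, processed by RMA per the submitters' processing notes, with the version not stated. The deposited intensities were turned to log2 here with no added constant. Of 34760 probe sets, 21640 carried 1 gene symbol, 1321 several and 11799 none; only the first kind was used, giving 19937 genes at 1 probe set each (highest mean). The 13138 genes at or above the 40th percentile in at least 2 arrays were fitted in limma 3.58.1 (R 4.3.3, statmod 1.5.0), with 1 mean per genotype over all 10 arrays and empirical Bayes moderation (6 residual and 5.68 prior degrees of freedom, median SD 0.14 log2). Benjamini-Hochberg adjustment ran over all genes tested, each p is two-sided, and calls were made at an adjusted p under 0.05. The steps were tested on simulated data. The number of arrays limits the precision: arrays had median intensities of 92.6 to 98.6 and correlated at 0.980 to 0.989 within groups, and no 2 were identical.

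The members and gene lists were chosen with earlier results of these data known. Named genes were the 10 largest called rises and falls in DKO, all called members of HEBKO and E2AKO, those of the interaction, up to 2 called members and the brightest member of each substrate group, and the genes nearest the intensity limit; of the other lists, up to 3 called genes with the largest change. Some uncalled family members and partners were added after their values were seen. Substrate groups follow the SLC family; Slc6a19os was set among genes that are not carriers after its values were seen. Levels of different probe sets were not compared. Alternatives covered the filter, normalisation, probe set choice, moderation, array weights, samples in the fit, a replicate block, and each array left out. Gene positions were not used here because the build was not given in the sources used here; promoters came from a RefSeq table that names its own.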

Additional observations from a re-analysis of the deposited data

Results flagged for a closer look

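The interaction term passed in 3 carriers, which means that the change seen on losing both factors differed from the sum of the changes on losing each. It was 1.21 log2 for Slc12a7 (KCC4), 1.00 for Slc16a6 (MCT7) and 0.82 for Slc20a1 (PiT-1). For each of these genes the 3 DKO arrays were above all others.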

How the results depend on the processing

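Over 51 single gene results, 962 values under other settings included 830 with the same direction and side of the threshold, 122 that no longer passed, 10 that newly passed and 0 called values with a changed sign; 8 uncalled values changed sign. Of 45 calls over the 5 comparisons, 17 held in every refit that kept all groups, which leaves aside the 2-fold limit and the fits of only the groups compared. In DKO against WT, 26 calls became 59 with array weights and 7 at 2-fold or more, and 16 to 27 with single arrays left out. In HEBKO, 3 calls became 8 with array weights, 1 with only the groups compared and 0 at 2-fold or more, and 0 to 6 with arrays left out; in E2AKO there were 0 throughout. In DKO against HEBKO, 13 became 7 with only the groups compared and 3 at 2-fold or more, and 3 to 14 with arrays left out. The interaction went from 3 to 1 at 2-fold or more, and 0 to 3 with arrays left out; it could not be fitted on fewer groups. The causes were not tested.

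Replicate numbers are shared between groups, and the labels do not say that they mark a shared litter, batch or day. The deviations of 10 of 13 pairs with the same number correlated above 0.1, but not those of every pair (range -0.29 to 0.48), and 5 of 10 arrays correlated best with their own number, so the arrays were not treated as paired; whether the numbers mark a shared source is not known here. With a replicate block the calls were 41 in DKO, 4 in HEBKO, 10 in DKO against HEBKO and 0 in the interaction. Groups of 2 and 3 arrays limit what could be called, and small differences near the 40th percentile are the least reliable.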
